A study of Mus musculus with 2 samples.

Results

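The genes C1qa, C1qb and C1qc encode the 3 chains of complement C1q, and these 3 of the 26124 genes counted in the series are described here by library, by culture day and together with H2-Ab1, Arg1, Marco and Ccr7. All 3 genes were present in both matrices. They were selected on their measured level, which was already known to differ between the libraries and days of these data, so the levels are given as a description, without a test.

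C1q is the recognition part of the first component of the classical complement pathway. It binds antibody on a target and, with the proteases C1r and C1s, starts the cleavage of C4 and C2. It also binds dying cells and debris, which phagocytes then take up more readily. Most plasma proteins of complement come from the liver, but C1q is made largely by macrophages and immature dendritic cells, and it is a common marker of resident macrophages in tissues.

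Lineage-negative bone marrow cells of 8 to 10-week-old C57BL/6 mice were cultured with 20 ng/ml GM-CSF, a cytokine that drives marrow precursors toward granulocytes, macrophages and dendritic cells. On day 3 either heme-albumin (300 µM heme) or albumin alone, the vehicle control, was added. Each treatment gave 1 droplet library of the 10x Genomics 3' assay, in which unique molecular identifiers (UMIs) count captured transcript molecules, and each library pooled 5 cultures marked with antibody hashtags of days 0, 3, 4, 5 and 7. The question was how heme changes the differentiation of marrow cells in these cultures.

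By the labels, the cultures of days 0 and 3 preceded the addition, and they are called unexposed in the heme library too on that basis, so that only days 4, 5 and 7 compare exposed with control cells. With 1 library per treatment there was no replicate, and a difference between libraries and a difference between treatments cannot be told apart. All intervals are 95% intervals that cover counting error only. The hashtags are named by day. The exposure times in the series' design text cannot all be matched to these days, and the study also describes staggered starts with a common harvest, so that a hashtag day may stand for the age of a culture rather than a date of harvest. Results are therefore given by hashtag day.

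Cells were kept if they carried a single hashtag and met the study's limits on genes, mitochondrial and ribosomal protein reads, which left 9684 control and 9941 heme cells of 26214 single-hashtag barcodes. Each culture held between 6189203 and 34647365 UMIs. The limit of 5000 genes per cell removed 1.92% to 8.34% of the single-hashtag barcodes of the control cultures but 16.4% to 33.9% of those of the heme library, so values over all single-hashtag barcodes are given beside the main ones where they differ. On day 0 all limits together kept 598 of 1716 single-hashtag barcodes of the control and 1366 of 1877 of the heme library. In the control culture of day 0 the limit of 5000 genes removed 1.92%, so most of this loss came from the other limits. Day 0 values of kept cells therefore describe an unevenly filtered remainder. The libraries had 112 barcode sequences in common, 33 of them among the kept cells of both. The kept day 0 cells of both libraries included a progenitor-like cluster with Elane, Mpo, Kit and Cd34. They also included erythroid-like, basophil or mast cell-like and T or NK cell-like clusters and an unnamed one led by immunoglobulin genes. The kept lineage-negative cells were thus a mixture.

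The 3 genes lie side by side on the minus strand of mouse chromosome 4 and span 18675 bases with no other annotated gene between them (GRCm38, GENCODE M21). C1qb (ENSMUSG00000036905) occupies chr4:136880129-136886187, C1qc (ENSMUSG00000036896) chr4:136889804-136893065 and C1qa (ENSMUSG00000036887) chr4:136895917-136898803. The intervals between neighbours were 3616 and 2851 bases, each gene has 3 exons, and no other gene overlaps any of them. The nearest protein-coding genes on either side were Ephb2, 44140 bases away, and Epha8, 30615 bases away. Because the assay counts the 3' ends of transcripts, UMIs of the 3 genes are compared between cultures and not between genes.

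The promoters of C1qb and C1qc, each 250 bases before to 50 bases after the start site, are shown because the 3 neighbouring genes moved together across the cultures. They come from RefSeq (GRCm38.p6, minus strand, written 5' to 3'), and the promoters of these 2 of the 3 members were used here. Capitals mark the matches to 4 motifs that were searched on both strands. The motif of PU.1, a factor of myeloid cells, was GAGGAAG. A pair of interferon regulatory factor sites was written GAAANNGAA. The antioxidant response element, bound by NRF2, was written TGACNNNGC. The TATA box was TATAAA.
C1qb, chr4:136886151-136886450: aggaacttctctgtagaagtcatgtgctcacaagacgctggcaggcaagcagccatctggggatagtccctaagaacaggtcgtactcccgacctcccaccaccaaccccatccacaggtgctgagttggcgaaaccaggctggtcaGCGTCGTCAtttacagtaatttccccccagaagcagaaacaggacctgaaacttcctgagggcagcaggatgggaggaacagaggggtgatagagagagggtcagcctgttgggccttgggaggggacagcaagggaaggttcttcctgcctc
C1qc, chr4:136892865-136893164: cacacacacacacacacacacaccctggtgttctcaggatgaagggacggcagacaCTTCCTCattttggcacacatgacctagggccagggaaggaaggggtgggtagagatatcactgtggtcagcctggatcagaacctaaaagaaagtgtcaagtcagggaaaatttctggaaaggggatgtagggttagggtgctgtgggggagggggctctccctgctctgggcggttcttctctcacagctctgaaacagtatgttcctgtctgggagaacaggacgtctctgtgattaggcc
The C1qb window held 1 match, to the antioxidant response element on the opposite strand, whose first printed base was 103 bases before the start site. The C1qc window held 1 match, to the PU.1 motif on the opposite strand, whose first printed base was 194 bases before the start site. The antioxidant motif was found in 12.4% and the PU.1 motif in 13.6% of 32851 promoters of the same length, so that both matches are common. The letters of the interferon regulatory factor and TATA motifs, which 8.56% and 13.6% of all promoters hold, were in neither window.

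Within the limits, all 3 genes were higher on each day after day 3 in the control library, and none exceeded 5.05 CPM in the heme library. Over all single-hashtag barcodes, C1qb reached 12.5 CPM on day 5 of the heme library. C1qa, the A chain, measured 0.485, 0.544, 2.00, 6.50 and 61.8 CPM (a gene's UMIs per 1000000 gene UMIs of the culture) on days 0, 3, 4, 5 and 7 of the control library. In the heme library C1qa measured 0.910, 0.822, 0.364, 0.619 and 1.22 CPM on the same days. The exposed cultures therefore lay below the control cultures of their day on days 4, 5 and 7, while the unexposed pairs of days 0 and 3 had overlapping intervals.

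C1qb, the B chain, measured 1.13, 6.77, 12.5, 43.6 and 210 CPM on days 0 to 7 of the control library. Its heme library values were 0.379, 5.05, 2.66, 4.28 and 4.53 CPM. C1qb was already present on day 3 in both libraries, at 199 UMIs in the control and 166 UMIs in the heme library, and it was the only chain gene with more than 100 UMIs in each of these unexposed cultures.

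C1qc, the C chain, measured 0.969, 2.11, 4.87, 18.6 and 87.9 CPM in the control library and 0.531, 1.00, 0.583, 1.24 and 2.63 CPM in the heme library. Summed over the genes, the control cultures held 16, 277, 504, 1785 and 12466 C1q UMIs on days 0, 3, 4, 5 and 7 and the heme library 24, 226, 99, 119 and 226. In bulk sums such as these, fewer C1q cells and less C1q RNA per cell cannot be told apart, and the values per cell are given further on.

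In order of the summed C1q level, the control culture of day 7 was first at 360 CPM (354 to 366). The control cultures of day 5, 68.7 CPM (65.6 to 72.0), day 4, 19.3 CPM (17.7 to 21.1), and day 3, 9.42 CPM (8.34 to 10.6), followed. The heme culture of day 7 came next at 8.39 CPM (7.33 to 9.55), and its interval overlapped that of the unexposed control culture of day 3. The heme library's cultures of day 3, at 6.88 CPM (6.01 to 7.84), and day 5, at 6.14 CPM (5.08 to 7.34), overlapped each other, and both also overlapped that of day 7. The lowest 3, of which each overlapped its neighbour in the order, were the heme culture of day 4 at 3.61 CPM (2.93 to 4.39) and the day 0 cultures at 2.59 CPM (1.48 to 4.20) in the control and 1.82 CPM (1.17 to 2.71) in the heme library. Over all single-hashtag barcodes this order differed. There the heme culture of day 5, at 17.7 CPM (16.6 to 18.9), lay above that of day 7, at 11.5 CPM (10.6 to 12.4). Both lay above the control culture of day 3, at 8.93 CPM (7.98 to 9.97).

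**Figure D1:**
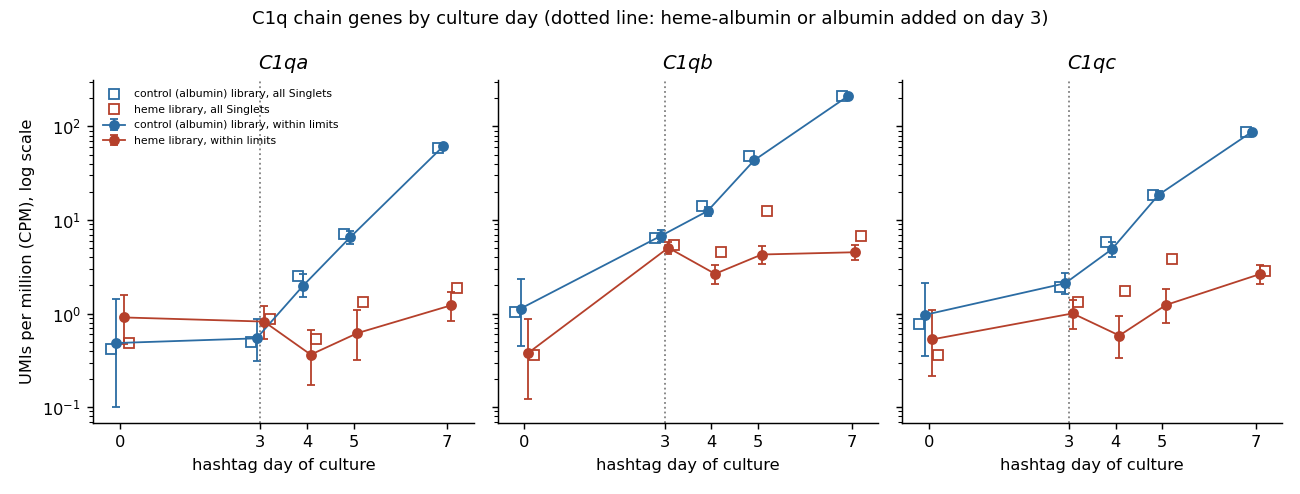
Level of C1qa, C1qb and C1qc (CPM, log axis) against hashtag day in the control (blue) and heme (red) library, with filled points for cells within the study's limits, bars for 95% counting intervals and open squares for all single-hashtag barcodes. On day 7 C1qb is at 210 CPM in the control and 4.53 CPM in the heme culture, and on day 5 the open red squares lie above the filled red points for all 3 genes.

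Between days 3 and 7 the summed C1q level was 38.2-fold higher in the control library (33.9 to 43.2) and 1.22-fold higher in the heme library (1.01 to 1.47). Among the genes, the control values were 113.6-fold for C1qa (69.8 to 199), 31.1-fold for C1qb (27.0 to 35.9) and 41.7-fold for C1qc (32.4 to 54.5). In the heme library only C1qc had an interval above 1, at 2.62-fold (1.71 to 4.09), whereas C1qa was at 1.49-fold (0.869 to 2.58) and C1qb at 0.896-fold (0.703 to 1.14). Over all single-hashtag barcodes each gene was higher on day 7 of the heme library than on day 3, with separate intervals. C1qa had 0.874 CPM (0.676 to 1.11) and 1.88 CPM (1.53 to 2.28) on these days, and C1qb 5.44 CPM (4.93 to 6.00) and 6.76 CPM (6.09 to 7.48).

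Between days 3 and 4, the first day of exposure, the summed level within the limits was 2.05-fold higher in the control library (1.77 to 2.39) and 0.524-fold in the heme library (0.410 to 0.667). C1qa, C1qb and C1qc were each higher on day 4 than on day 3 in the control library, by 3.67-fold, 1.84-fold and 2.31-fold. C1qa and C1qb were lower in the heme library, at 0.443-fold (0.191 to 0.945) and 0.526-fold (0.394 to 0.697), and C1qc was at 0.580-fold with an interval that reached 1 (0.298 to 1.08). Over all single-hashtag barcodes the heme sum was 7.66 CPM (7.04 to 8.31) on day 3. On day 4 it was 6.82 CPM (6.10 to 7.61), and these intervals overlapped. The intervals of each of the 3 genes overlapped too, and C1qc was higher on day 4, at 1.75 CPM against 1.34 CPM. Past 2-fold in the control library were C1qa and C1qc from day 3 to day 4, and all 3 genes in each of the next steps, where 4.31%, 5.49% and 4.74% of all genes tested were higher to this degree. In the heme library within the limits no member passed 2-fold higher in the first step, and C1qc alone did so in the next steps, at 2.12-fold (1.08 to 4.28) and 2.13-fold (1.32 to 3.54), where 5% of all genes tested did so in the first, 4.22% in the second and 4.34% in the third. Over all single-hashtag barcodes the heme course had another shape. On days 4, 5 and 7 C1qb measured 4.54, 12.5 and 6.76 CPM there, C1qa 0.533, 1.33 and 1.88 CPM, and C1qc 1.75, 3.87 and 2.86 CPM.

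On day 7 the control culture exceeded the heme culture 50.5-fold for C1qa (35.8 to 73.5), 46.4-fold for C1qb (38.8 to 56.0) and 33.3-fold for C1qc (26.4 to 42.8). On days 4, 5 and 7 all 3 members were past 2-fold toward the control side, as were 2.98%, 3.75% and 7.67% of all genes tested. On no day was a member 2-fold or more higher in the heme library, in contrast to 20.7%, 7.95%, 9.64%, 9.27% and 14.9% of all genes tested on days 0 to 7. On day 0 each member had under 20 UMIs in all and was not counted, while 1.75% of the genes tested were lower in the heme library. On day 3, before exposure, C1qc alone was past 2-fold, at 2.10-fold higher in the control library (1.35 to 3.31), and 0.539% of all genes tested were lower to this degree in the heme library. Since the members were chosen for this difference, the counts are a description. On day 7, 2075 genes had a control level at least as high as C1qa, and ordered by the ratio of heme to control C1qa stood 4th, C1qb 6th and C1qc 8th, after Arg1, Fn1 and Asgr2 and among Ccl17 and Tmem176a. Among all 12867 genes tested they stood 59th, 65th and 79th.

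The difference was smaller when cells above 5000 genes were included. Over all single-hashtag barcodes the summed C1q level of the control culture exceeded that of the heme culture 3.31-fold on day 4 (2.90 to 3.79), 4.19-fold on day 5 (3.88 to 4.52) and 30.8-fold on day 7 (28.4 to 33.4), against 5.36-fold, 11.2-fold and 42.9-fold within the limits. The heme cells above the limit alone, examined after the data were seen, held 798 C1q UMIs on day 5 at 24.8 CPM (23.1 to 26.5) beside 6.14 CPM within the limits, and 403 UMIs on day 7 at 14.7 CPM (13.3 to 16.2). The corresponding control cells measured 91.9 CPM on day 5 and 380 CPM on day 7. In each of these cell sets the heme cultures stayed below the control cultures of days 5 and 7. On day 3 the summed control level was 1.37-fold the heme level within the limits (1.14 to 1.64) and 1.17-fold over all barcodes (1.01 to 1.34), a difference between cultures labelled as unexposed.

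The share of the chains in the summed C1q UMIs changed with culture time. In the control library C1qa made up 5.78% of C1q UMIs on day 3 (3.34% to 9.21%), 10.3% the day after, then 9.47%, and 17.2% on day 7 (16.5% to 17.9%). C1qb went from 71.8% (66.1% to 77.1%) to 58.4% (57.5% to 59.3%) over the same days, and C1qc stayed between 22.4% and 27.1%. In the heme library C1qb went from 73.5% on day 3 (67.2% to 79.1%) to 54.0% on day 7 (47.2% to 60.6%) and C1qc from 14.6% (10.3% to 19.9%) to 31.4% (25.4% to 37.9%). The day 7 shares of C1qa and C1qb had overlapping intervals in the libraries, at 14.6% of C1q UMIs for C1qa and 54.0% for C1qb in the heme culture, while the interval of C1qc began just above that of the control (23.7% to 25.2%). Over all single-hashtag barcodes of day 7 the shares of C1qc were similar, at 157 of 631 heme and 3616 of 14856 control UMIs. The intervals take UMIs as independent, although the top 1% of the heme cells within the limits carried 73.0% of the C1q UMIs. On day 0 the sums of 16 and 24 UMIs were too small for shares to be read.

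**Figure D2:**
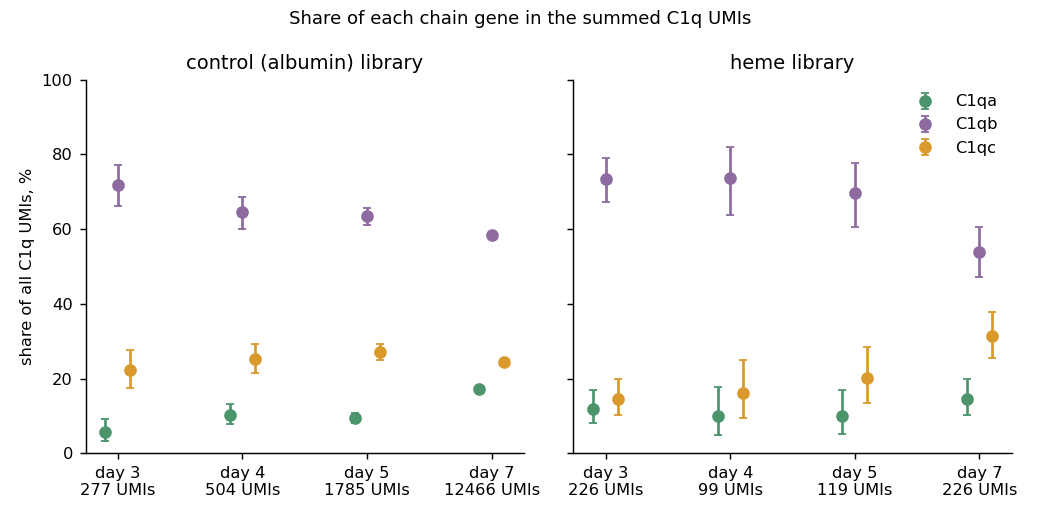
Share of C1qa, C1qb and C1qc in the summed C1q UMIs (%) of each culture from day 3 to day 7 in the control and heme library, with exact binomial 95% intervals and the number of C1q UMIs below each day. The share of C1qb is 71.8% and 73.5% on day 3 and 58.4% and 54.0% on day 7, in the control and heme library.

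Per cell, C1q was concentrated in a minority of the control cells. To compare cultures of different depth, each cell was thinned to 5000 UMIs and shallower cells were left out. At this depth 798 of 2360 control cells of day 7 had a C1q UMI, or 33.8% (31.9% to 35.8%), against 44 of 1764 heme cells, or 2.49% (1.82% to 3.33%). Without thinning, these same cells had shares of 42.4% and 3.91%, at median depths of 13019 and 15070 UMIs. Over the earlier days 0, 3, 4 and 5 the thinned share of the control library was 1.01%, 3.78%, 4.32% and 10.1%, and the heme library had 0.608%, 1.93%, 1.07% and 1.60%.

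By gene, 10.9% of the control cells of day 7 had a C1qa UMI, 29.9% a C1qb UMI and 20.3% a C1qc UMI at 5000 UMIs per cell. The heme cells had 0.510%, 1.64% and 1.19%. Neutrophil-like cells, which should lack C1q, gave the background of free RNA in the droplets. With all their UMIs, at median depths of 4558 and 6411 on day 7, 0.785% of 382 neutrophil-like control cells and 0.205% of 488 neutrophil-like heme cells had a C1q UMI, with summed levels of 1.48 CPM (0.306 to 4.33) and 0.272 CPM (0.00689 to 1.52). On days 3, 4 and 5 this background was higher in the control library, with a C1q UMI in 2.83%, 2.25% and 1.65% of neutrophil-like cells and 2.70, 2.66 and 2.65 CPM, against 0.784%, 0.657% and 0.699% and 0.607, 0.756 and 1.01 CPM in the heme library. With all their UMIs, 7.52% and 8.46% of the control cells in the comparison had a C1q UMI on days 3 and 4. The part of the background in these early shares, and in the day 3 difference between the libraries, was not tested.

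In the control culture of day 7, 384 of 2715 cells (14.1%) held 10 or more C1q UMIs and the highest cell held 133. The 10% of cells with most C1q carried 71.2% of the C1q UMIs. In the heme culture of day 7, 5 of 2012 cells held 10 or more C1q UMIs, the highest held 22, and the top 1% of the cells carried 73.0% of the 226 UMIs. All 3 genes were seen together in 325 control cells and in 6 heme cells.

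The chain genes were found in the same cells. At 5000 UMIs, 91.9% of the 258 control cells of day 7 with C1qa also had C1qb (87.8% to 94.9%), against 22.3% of the cells without C1qa (20.5% to 24.1%). Likewise, 83.1% of the cells with C1qc had C1qb (79.4% to 86.3%), against 16.4% of the cells without it. In the heme culture 8 of the 29 cells with C1qb had C1qc, or 27.6% (12.7% to 47.2%), against 0.749% of the cells without C1qb.

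H2-Ab1, the beta chain of the MHC class II molecule I-A that presents antigen to CD4+ T cells, went with C1q in the control cultures. Its culture level was 1823 CPM in the control and 325 CPM in the heme culture of day 7. Control cells of day 7 with H2-Ab1 had a C1q level of 451 CPM (437 to 465) and cells without it 128 CPM (116 to 141), a ratio of 3.52 (3.17 to 3.92), and the former held 91.1% of the C1q UMIs. These groups, and the bands of H2-Ab1 below, were not split by kind of cell. The neutrophil-like cluster 3, with 351 control cells of day 7 at a median of 4632 UMIs, had 66.3 CPM of H2-Ab1 and 1.07 CPM of C1q. The part of such cells in the ratio was not tested. On day 5 the ratio in the control culture was 20.0 (13.5 to 31.0), with 5.78 CPM in the cells without H2-Ab1. Already in the unexposed cultures of day 3 the ratio was 6.04 (3.91 to 9.52) in the control and 21.1 (9.64 to 54.9) in the heme library. In the exposed culture of day 5 it was 2.96 (1.41 to 6.43) within the limits and 14.4 (7.57 to 31.0) over all single-hashtag barcodes, and in that of day 7 it was 2.39 (1.48 to 3.90) and 2.62 (1.82 to 3.81).

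The C1q level was graded by H2-Ab1. Control cells of day 7 with no H2-Ab1 UMI, 1 to 4, 5 to 19, and 20 or more had C1q levels of 128, 199, 386 and 980 CPM, and these 4 intervals did not overlap. In the heme culture of day 7 the same bands had 5.70, 4.04, 29.1 and 173 CPM, the last from 19 C1q UMIs in 22 cells (104 to 270). Only 4 of these 22 cells had a C1q UMI, or 18.2% (5.19% to 40.3%), which overlapped the 10% (5.10% to 17.2%) of the band of 5 to 19. In each band the control cells were above the heme cells, also in the highest, where 364 control cells had an interval of 935 to 1026 CPM. The same comparison on day 5 gave 301 CPM (265 to 341) in 164 control cells and 115 CPM (64.6 to 190) in 26 heme cells with 20 or more H2-Ab1 UMIs. The bands were chosen after the first results were seen.

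**Figure D3:**
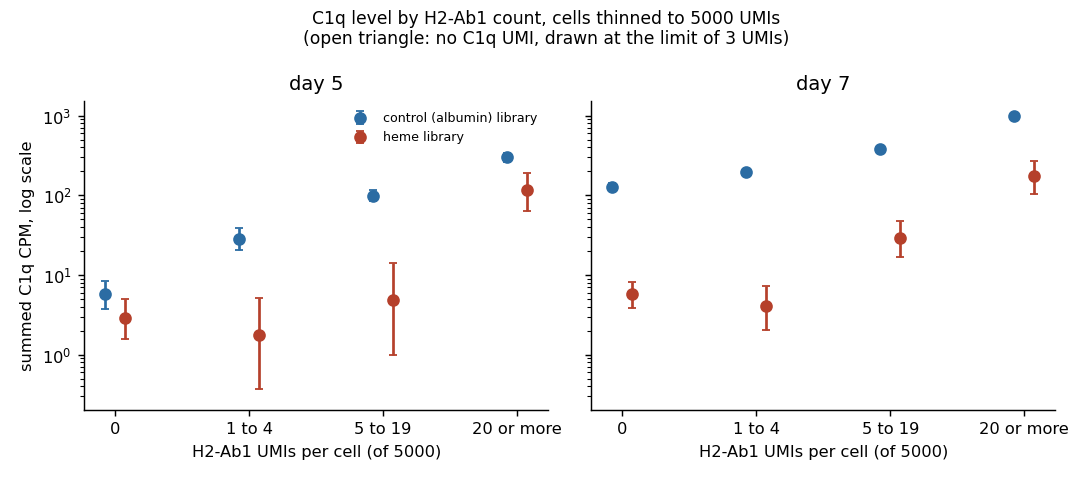
Summed C1q level (CPM, log axis) of cells with 0, 1 to 4, 5 to 19 and 20 or more H2-Ab1 UMIs, each cell thinned to 5000 UMIs, on days 5 and 7 in the control (blue) and heme (red) library, with 95% counting intervals. On day 7 the control points go from 128 to 980 CPM and the heme points from 5.70 to 173 CPM.

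Ccr7, the chemokine receptor by which mature dendritic cells reach lymph nodes, went the other way in the control culture of day 7. Control cells of day 7 with Ccr7 had a C1q level of 65.2 CPM (55.7 to 75.9) and cells without it 452 CPM (438 to 465), a ratio of 0.144 (0.123 to 0.169). On day 5 the control ratio was 0.483 (0.300 to 0.740) within the limits but 0.846 (0.610 to 1.15) over all single-hashtag barcodes. On day 3 the control ratio was in the opposite direction, at 8.42 (3.90 to 16.2) from 10 C1q UMIs in 24 cells with Ccr7, but 2.79 (0.745 to 7.38) over all single-hashtag barcodes, and on day 4 it was 1.34 (0.428 to 3.21). Of the control cells with 3 or more C1q UMIs, 4.68% had Ccr7, against 28.9% of the cells with none. In the heme culture of day 7, 60 cells with Ccr7 had 3 C1q UMIs and a ratio of 1.15 with an interval from 0.232 to 3.50, so that a difference was not detectable at this depth.

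Arg1, which encodes arginase 1 and marks macrophages that use arginine for ornithine rather than nitric oxide, was high on day 7 of the control library alone. Its culture level was 1.73 CPM on day 5 and 270 CPM on day 7 of the control library, and 2.26 CPM on day 7 of the heme library. Control cells of day 7 with Arg1 had a C1q level of 331 CPM (305 to 360) and cells without it 375 CPM (363 to 387), a ratio of 0.885 (0.809 to 0.967), which became 0.999 (0.921 to 1.08) over all single-hashtag barcodes. Among control cells with no H2-Ab1, cells with Arg1 had 198 CPM of C1q (162 to 240) and cells without Arg1 113 CPM (101 to 127). With 1 to 4 H2-Ab1 UMIs the values were 299 CPM (257 to 346) and 171 CPM (154 to 189), and with 5 to 19 they were 474 CPM (417 to 536) and 374 CPM (354 to 394). In the highest H2-Ab1 band the levels had the reverse order, at 538 CPM (375 to 749) and 996 CPM (950 to 1044). The former came from 13 cells. The share of cells with a C1q UMI was not reversed there, at 76.92% with Arg1 and 64.96% without. In each band this share was higher with Arg1, but the intervals of the shares overlapped. The groups with and without Arg1 were not split by kind of cell either. The neutrophil-like cluster 3 had 27.8 CPM of Arg1, 66.3 CPM of H2-Ab1 and 1.07 CPM of C1q on day 7 of the control library. The part of such cells in the values without Arg1 was not tested. Over all bands the shares were 34.9% with Arg1 (29.9% to 40.2%) and 33.6% without (31.6% to 35.7%). Of the heme cells of day 7, 7 had Arg1 and none of these had a C1q UMI.

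Marco, a scavenger receptor of macrophages, was detected in few control and many heme cells of day 7. Its culture level was 3.64 CPM in the control and 522 CPM in the heme library on day 7, but the libraries already differed before exposure, with 0.162 CPM and 8.11 CPM on day 0 and 0.0680 CPM and 8.28 CPM on day 3, and the source of this early Marco RNA in the heme library was not tested. In the control culture 16 of 2360 cells had Marco, and their C1q level of 500 CPM (357 to 681) overlapped the 367 CPM (356 to 378) of the other cells. In the heme culture 766 of 1764 cells had Marco, and their C1q level was 11.5 CPM (8.35 to 15.4) against 6.61 CPM (4.55 to 9.29) in the other cells, a ratio of 1.74 (1.08 to 2.82). The ratio was 3.47 at 2000 UMIs per cell, from 15 and 9 C1q UMIs, and 1.38 (0.791 to 2.31), with an interval that included 1, for cells with 5 or more Marco UMIs. The Marco cells of the heme culture held 44 of its 77 C1q UMIs at 5000 UMIs per cell, and 3.79% of them had a C1q UMI (2.55% to 5.39%). These groups were not split by kind of cell. Of the 488 neutrophil-like heme cells of day 7, at 0.272 CPM of C1q, 263 lay in cluster 2, which had 26.6 CPM of Marco. Between the macrophage-like clusters described below the order was the other way. Cluster 19 had 998 CPM of Marco and 10.5 CPM of C1q, and cluster 25 had 118 and 72.8 CPM. The part of the kinds of cells in the ratio was not tested.

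The cells of both libraries were clustered together without the C1q genes, without heme-response genes and without mitochondrial and ribosomal protein genes, which gave 27 clusters. The clusters of interest were made up mostly of 1 library, so that a cluster may be a library rather than a cell type. On day 7 the highest C1q level in the control culture was in cluster 6, at 754 CPM (734 to 773) in 513 cells, of which 74.3% had a C1q UMI. Its leading genes were Asgr2, Ckb, H2-Ab1, Aif1 and Cst3, and Zbtb46, Ccl17 and Dpp4 were the 3 raised dendritic cell markers by which it was called dendritic cell-like, while C1qb itself also stood among its leading genes. The other listed dendritic cell markers were not raised in cluster 6. H2-Ab1 measured 4207 CPM and Ccr7 3.91 CPM in it, beside 1823 and 165 CPM in the whole control culture of day 7. These are the C1q MHC class II-high cells of the control culture, and they held 5781 of its 12466 C1q UMIs.

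Next came cluster 10, led by Ccl4, Ptx3 and Tnfsf8, at 474 CPM (456 to 492). It had 3 raised macrophage markers, Cd14, Fcgr1 and Trem2, but stayed unnamed because the dendritic cell marker Ccl17 was among its leading genes. Cluster 20, led by Arg1, Fn1 and Slc7a2, had 353 CPM (339 to 367). It had 5 raised macrophage markers, Csf1r, Cd68, Mertk, Cd14 and Trem2, and stayed unnamed because the monocyte marker Fn1 was among its leading genes. Cluster 15, unnamed and led by Fn1, Tubb6 and Ccr2, had 207 CPM (194 to 221). Cluster 7, dendritic cell-like by 9 raised markers and led by Ccl5, Ccr7 and Fscn1, had 92.0 CPM (85.1 to 99.3) at an H2-Ab1 level of 1606 CPM. C1q was thus spread over several kinds of control cells and was lower in the Ccr7 cells than in other cells rich in H2-Ab1. The C1q intervals of these 5 clusters did not overlap.

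In the heme culture of day 7 cluster 25 was highest, at 72.8 CPM (58.9 to 89.0) in 74 cells, which held 95 of the 226 C1q UMIs. It was called macrophage-like from 3 raised markers, Csf1r, Cd68 and Trem2, was led by Mt3, Ppbp and Procr, and had an H2-Ab1 level of 2868 CPM. Its other listed macrophage markers were not raised, and none of the list was among its leading genes. Mrc1 and Marco measured 99.7 and 118 CPM in it, below the 275 and 522 CPM of the whole heme culture of day 7. Cluster 19, macrophage-like by 7 raised markers and led by Marco, Igf1 and Uchl1, had 10.5 CPM (8.58 to 12.6) in 613 cells, and cluster 5, led by Hmox1, Spic and Sdc4, had 2.30 CPM (1.40 to 3.55) in 601 cells. Cluster 5 stayed unnamed because it had as many raised monocyte markers, Vcan, S100a4 and Cx3cr1, as macrophage markers, Adgre1, Mrc1 and Marco. Cluster 7 held 37 heme cells with 1 C1q UMI, so that its level was 1.84 CPM (0.0466 to 10.3).

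On day 3, before exposure, clusters 6, 10 and 15 existed in both libraries and carried C1q in both. Cluster 6 had 30.4 CPM (22.3 to 40.4) in 86 control cells and 76.6 CPM (62.1 to 93.6) in 72 cells of the heme library. The shares of these cells with a C1q UMI were alike, at 24.4% and 22.2%. Cluster 10 had 89.0 CPM (71.8 to 109) in 60 control cells and 54.6 CPM (41.8 to 69.9) in 61 heme library cells, and cluster 15 had 24.9 CPM (18.2 to 33.2) and 13.6 CPM (7.76 to 22.1). Of all the heme library's cells in cluster 6, 72 of 88 were from day 3, and in cluster 10 this was 61 of 63. In the control library cluster 6 went on to 87.6, 208 and 754 CPM on days 4, 5 and 7 at H2-Ab1 levels between 4051 and 4431 CPM, so its C1q level was higher on later days at a similar H2-Ab1 level. Cluster 10 had 74.9, 85.8 and 474 CPM on these days, so that among the days sampled it was higher on day 7 alone. In the heme library cluster 25 had 26.7 CPM (20.2 to 34.5), 29.4 CPM (23.1 to 36.8) and 72.8 CPM on those days.

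**Figure D4:**
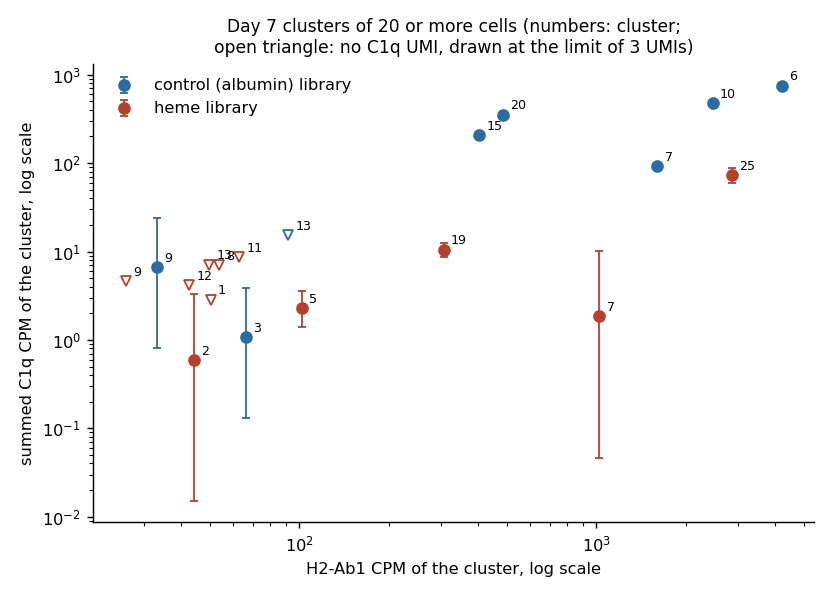
Summed C1q level against H2-Ab1 level (CPM, both log axes) of the day 7 clusters with 20 or more cells in the control (blue) and heme (red) culture, with 95% counting intervals and cluster numbers. Control cluster 6 is at 754 CPM of C1q, and the highest heme cluster, 25, at 72.8 CPM.

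The other complement genes mostly differed less than C1q between the libraries, or in the other direction. Of 43 other complement genes listed, 42 were in the matrices and 23 had enough UMIs to be compared on day 7. Of these 23, 7 were 2-fold or more higher in the heme culture, where 14.9% of all genes tested were, and 3 were 2-fold or more lower, where 7.67% were. Their median log2 ratio of heme to control was 0.44, beside 0.28 for all genes tested. The median of all genes was 0.05 with edgeR's TMM factors.

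The proteases that join C1q in the first component were scarce. C1ra, the C1r protease, had 4.96 CPM in the control and 11.1 CPM in the heme culture of day 7, a ratio of 2.23 in the direction opposite to C1q (1.85 to 2.71). C1s1, the C1s protease, had 1.62 CPM and 1.97 CPM, a ratio of 1.22 (0.820 to 1.80). C2, which C1s cleaves, did not exceed 1.78 CPM in any culture.

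C3, the central component on which all complement pathways converge, had 126 CPM in the control and 245 CPM in the heme culture of day 7. It was higher in the heme library on each day, 1.86-fold before exposure (1.81 to 1.91) and 1.94-fold on day 7 (1.87 to 2.02). Cfp, which encodes properdin, a stabiliser of the C3 convertase, was at 360 CPM in the control and 242 CPM in the heme culture, a ratio of 0.673 (0.653 to 0.693).

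Among receptors, C5ar1 for the fragment C5a had 51.3 CPM in the control and 110 CPM in the heme culture of day 7, a ratio of 2.15 (2.03 to 2.28), and C3ar1 for C3a a ratio of 1.39 (1.30 to 1.48). Cd93, a surface lectin once described as a C1q receptor, had 35.5 CPM and 177 CPM, a ratio of 4.98 (4.68 to 5.31), and Lrp1, an endocytic receptor that takes part in the uptake of C1q-coated cells, 56.4 CPM and 172 CPM, a ratio of 3.06 (2.90 to 3.22). Itgax, the alpha chain of complement receptor 4 and the dendritic cell marker CD11c, was lower in the heme culture, with 235 CPM and 81.1 CPM and a ratio of 0.345 (0.329 to 0.361). C1qbp, a mitochondrial protein named for binding C1q, had a ratio of 0.697 on day 7 but also of 0.590 on day 3.

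Of the 8 transcription factors compared, 3 were 2-fold or more higher and 2 were 2-fold or more lower in the heme culture of day 7, beside 14.9% and 7.67% of all genes tested. Maf, a transcription factor of macrophages and T cells, was higher in the heme culture of day 7, at 36.4 CPM against 8.02 CPM, and Spic, a factor of heme-handling macrophages, was at 104 CPM against 0.144 CPM. Irf8 and Irf4, factors of dendritic cell development, were lower, with ratios of 0.364 (0.344 to 0.385) and 0.247 (0.226 to 0.269). Spi1, which encodes PU.1, had 358 CPM and 331 CPM, a ratio of 0.925.

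Genes often found with C1q in tissue macrophages differed in both directions. Of 12 listed, 9 were compared on day 7, of which 3 were 2-fold or more higher and 1 lower in the heme culture, with a median log2 ratio of 0.40 beside 0.28 for all genes tested, of which 14.9% were higher and 7.67% lower to this degree. The mannose receptor gene Mrc1 had 60.6 CPM in the control and 275 CPM in the heme culture, and Adgre1, which encodes F4/80, 66.6 CPM and 205 CPM. Trem2, a lipid receptor of macrophages, had 154 CPM and 183 CPM. Axl, a receptor for the uptake of dying cells, had 238 CPM and 120 CPM, a ratio of 0.504 (0.484 to 0.525). Apoe, the apolipoprotein of macrophages, was the gene past 2-fold lower, at 9.29 CPM and 3.23 CPM, and Folr2 and Timd4, markers of some resident macrophages, had no UMI among the kept cells of any culture.

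**Figure D5:**
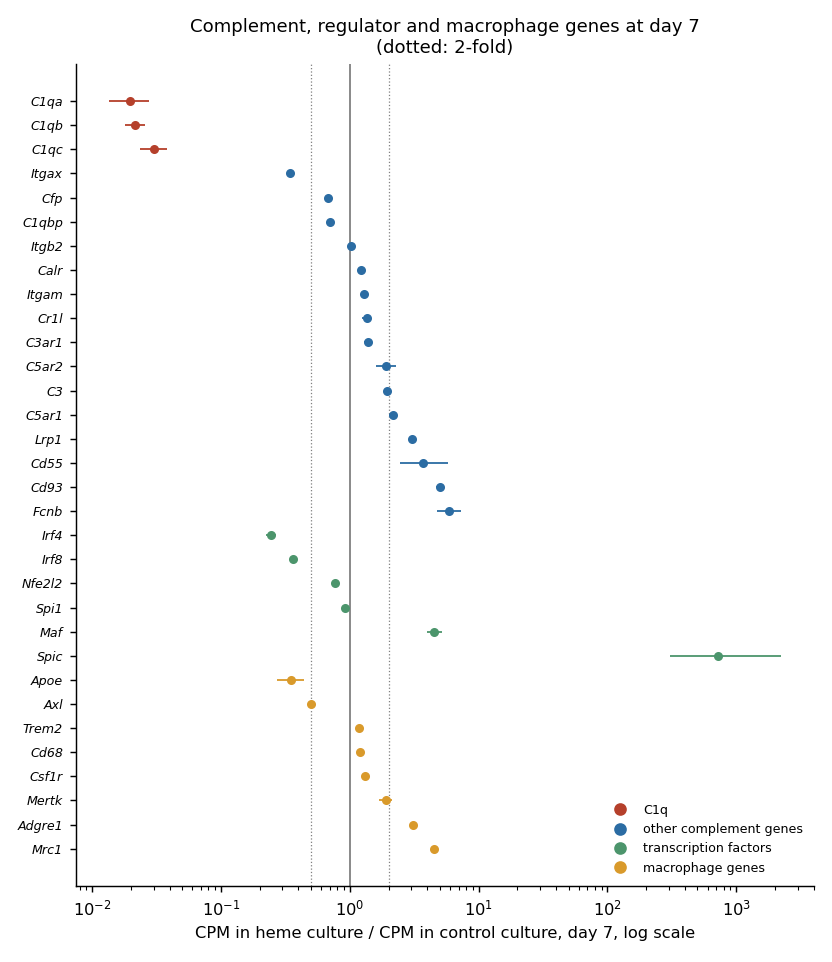
Ratio of the heme to the control culture of day 7 (CPM in heme divided by CPM in control, log axis) for the C1q genes and the listed complement, transcription factor and macrophage genes that reached 20 CPM in a culture, with 95% counting intervals. C1qa, C1qb and C1qc lie between 0.0198 and 0.0300, and the other complement genes between 0.345 for Itgax and 5.90 for Fcnb.

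The course of the C1q genes over the 10 cultures was compared with that of all 9639 genes reaching 10 CPM, by Pearson's r of log2(CPM + 1), as a description over cultures that share 2 libraries. C1qa, C1qb and C1qc correlated with each other at r of 0.91 to 0.97. The most similar other genes were Fcrls, an Fc receptor-like gene, at r = 0.98, and Ckb, a creatine kinase, Mucl1 and Wnt6 at r = 0.97. Fcrls had 55.8 CPM in the control and 2.67 CPM in the heme culture of day 7, and Mucl1 had 46.0 CPM in the control and no UMI in the heme culture. Nudt18, Mras, Slc27a3, Tmsb10, Fgfr1 and Jund completed the 10. With 10 CPM added in place of 1 CPM, 7 of these 10 were again among the 10 most similar, and with Spearman's rho none was. For the genes of the co-detection, r was 0.86 for Arg1, 0.84 for H2-Ab1, 0.68 for Ccr7 and -0.16 for Marco, beside -0.40 for Spic.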

How the data were processed

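The data were 2 single-cell libraries of mouse marrow cultures. According to the labels, the authors used Cell Ranger and Seurat (the processing notes name Cell Ranger 4.0.0, Seurat 3.2.3 and GRCm38.p6), and hashtags were assigned in Seurat. Values in the deposited matrices are UMI counts of genes and hashtags without normalization, and the deposited barcode tables give the authors' hashtag class and day, which defined the cultures. No per-sample column was left unused.

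Cells with 500 to 5000 genes, under 15% mitochondrial and under 30% ribosomal protein UMIs and the class Singlet were kept. Doublets were removed by the hashtag class alone, and no doublet caller was run. UMIs were summed per culture and divided by the culture's total gene UMIs (CPM). Intervals were exact Poisson (levels and ratios) and Clopper-Pearson (shares), both 95% and for counting error only. A count of 0 allows up to 3 counts. A gene entered the 2-fold counts if the compared cultures summed to 20 or more of its UMIs. Shares of cells and co-detection used cells thinned to 5000 UMIs. Clusters came from scanpy 1.11.5 (2000 variable genes, 15 components, 15 neighbours, Leiden resolution 1), named from marker lists. A cluster was named with 3 or more raised markers (detected in 10% of its cells, log2 ratio of 1 or more), unless another type had as many raised markers or more of its markers among the 10 leading genes, or the cells were shallow with no such marker leading. Scaling alternatives used edgeR 4.0.16 and DESeq2 1.42.0 factors on the culture sums, for scaling only. Intervals, 2-fold counts, thinning and likeness were tested on simulated data.

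The genes named were the 3 members, the 4 co-detected genes, the listed genes with 20 CPM or more in a culture (C1ra, C1s1, C2, Folr2 and Timd4 are named below this level for their role), the 10 genes most similar to C1q, and the leading genes of clusters. The members and lists were chosen with earlier results of these data known. No test was made, since each treatment had 1 library. The planned protein comparison was not made here, and the promoter of C1qa was not analysed here. One listed transcription factor and one planned motif are not reported here.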

Additional observations from a re-analysis of the deposited data

Results flagged for a closer look

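Within the study's limits, the libraries moved in opposite directions from day 3 to day 4, each past its counting interval. C1qa was 3.67-fold in the control and 0.443-fold in the heme library, C1qb 1.84-fold and 0.526-fold, and the sum of the 3 genes 2.05-fold and 0.524-fold. Over all single-hashtag barcodes the heme sum was 7.66 CPM (7.04 to 8.31) on day 3. On day 4 it was 6.82 CPM (6.10 to 7.61), and these intervals overlapped, so that the heme decrease depended on the limits. The difference between the libraries was not tested, since each treatment had 1 library.

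C1q UMIs were also found in barcodes that no comparison used. In the control library, barcodes with several hashtags had a summed C1q level of 106 CPM (102 to 109) and barcodes without a hashtag 33.8 CPM (27.5 to 41.1), and in the heme library the values were 8.96 CPM (8.28 to 9.68) and 3.41 CPM (2.23 to 4.99). These barcodes have no day, so they cannot be placed in a culture.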

How the results depend on the processing

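No paired analysis was possible because each treatment had 1 library and no result came from a test. Of 173 recomputed values for 40 results, the sign changed for the ratios of Marco in control cells and of Ccr7 in heme cells of day 7 alone, the latter from 0.20 to -1.16 over all barcodes, and both intervals had included no difference. The log2 ratio of heme to control of the summed C1q UMIs, -2.42 on day 4, -3.48 on day 5 and -5.42 on day 7, became -1.73, -2.07 and -4.94 over all single-hashtag barcodes, and -1.77, -2.07 and -4.97 with the upper limit on genes removed. With the day 0 level subtracted it was -3.23, -3.94 and -5.77, with the day 3 ratio subtracted -1.97, -3.03 and -4.97, and on days 4 and 5 without the 5% of cells with most UMIs -3.15 and -4.36. On day 7 edgeR's TMM factors gave -5.66 and DESeq2 size factors -5.68.

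The share of control cells of day 7 with a C1q UMI, 33.8%, was 23.3% at 2000 UMIs, 40.8% at 8000 UMIs and 19.9% for 3 or more C1q UMIs. The heme share of 2.49% was 0.812% at 2000 UMIs and 0.567% for 3 or more C1q UMIs. The log2 ratio of C1q in control cells with to those without H2-Ab1, 1.82, was 2.06 at 2000 UMIs, and that for Ccr7, -2.79, was -3.51 with 5 or more Ccr7 UMIs. For Arg1, -0.18, it was -0.41 with 5 or more Arg1 UMIs and -0.00159 over all barcodes. For Marco, 0.44 in 16 cells, it was -0.32 at 2000 UMIs and -0.0498 over all barcodes. With 100 or more UMIs required, 648 genes in place of 987 were 2-fold lower in the heme culture of day 7. The highest control cluster was at 754, 594 and 599 CPM with the main clustering, resolution 0.5 and 30 components, and the highest heme cluster of 100 or more cells at 10.5, 7.54 and 7.62 CPM.

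On day 4, TMM factors gave 663 genes lower and 714 higher, against 373 and 1206, and on day 5 769 and 691, against 470 and 1161. On day 7 they gave 1346 lower and 1305 higher, against 987 and 1911. With 100 or more UMIs 676 genes were higher on day 4, and 289 lower and 665 higher on day 5. The causes of these changes were not tested. The exposed heme cultures held 99 to 226 C1q UMIs within the limits and 320 to 919 over all single-hashtag barcodes.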
